A study of Mus musculus with 4 samples.

Results

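The non-collagen matrix and basement membrane genes of 4T1Ch9 tumors were chosen by name, from a list of 45 genes that encode small leucine-rich proteoglycans, adhesive and matricellular proteins, crosslinking enzymes, elastic fibre proteins, laminins, other basement membrane proteins, and versican with the hyaluronan synthases. The list was drawn up with earlier results of these data known, and its rule uses no expression value. A gene was measured where a probe set of the arrays names that gene and no other, and where a gene had several such probe sets, the one of highest mean level was taken. This gave 39 of the 45 genes, among 17097 genes in all, and Thbs1, Fbn1, Efemp2, Lama4, Lama5 and Nid2 were not used here.

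The extracellular matrix is the scaffold around cells. In a mammary tumor it is laid down mainly by fibroblasts, with contributions from tumor, endothelial and fat cells. Fibrillar matrix is organised by proteoglycans and matricellular proteins, stiffened by lysyl oxidases and made elastic by elastin and microfibrils. Basement membranes are thin sheets of laminin and collagen IV networks, joined by nidogen and perlecan, that lie beneath epithelium and endothelium and around fat and muscle cells.

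Total RNA was measured in bulk tumors of 4T1Ch9, a mouse TNBC line that carries a cherry tag and comes from the Balb/c strain. Each female Balb/c mouse had 50000 cells injected into the mammary fat pad. After 10 days of growth the mice received vehicle (polyethylene glycol and Solutol) or, at 1 mg/kg a day, trametinib, an inhibitor of the kinases MEK1 and MEK2 (MEKi), and treatment lasted 7 days. Each group has 2 Affymetrix MG-430PM arrays, and the sources do not state whether both arrays of a group stand for different mice. The p-values thus cover the variation among arrays alone, and that may be technical. All 4 arrays are of tumors of this 1 line, and the comparison asks how MEKi changes gene expression in the tumor. Values are log2 expression made by RMA, so that a difference of 1 is a 2-fold change, and they are not comparable in level between genes. Array medians ranged from 4.98 to 5.14, and the precision is limited by having 4 arrays.

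The arrays did not group by label. Pearson's r over all probe sets, which are not independent replicates, was 0.992 between MEKi 1 and vehicle 2 and 0.978 between MEKi 2 and vehicle 1, against 0.927 between both MEKi arrays and 0.959 between both vehicle arrays. Genes transcribed downstream of the MAPK pathway, which MEKi blocks, had a median over 12 genes of 7.61 and 9.70 in the MEKi arrays, replicate 1 first, and of 9.29 and 8.36 in the vehicle arrays. The array with the highest median of these genes was thus labelled MEKi. Every direction below therefore rests on the labels as deposited, and "MEKi arrays" and "vehicle arrays" mean the arrays so labelled, with replicate 1 given first.

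By label, most of the matrix genes read lower in MEKi. The log2 fold change (MEKi minus vehicle) was below 0 for 34 of 39 members (87.2%), against 47.8% of all genes, with a median of -0.51 over the members and 0.01 over all genes. Both MEKi arrays lay below both vehicle arrays for 17 members (43.6%), against 10.2% of all genes, and above them for 1 member, Dcn (2.56%), against 11% of all genes. The arrays of both labels overlapped for the other 21 members. For 10 members (25.6%), all lower in MEKi, the difference between labels was larger than both gaps between arrays of 1 label, as it was, in that direction, for 6.07% of all genes. These were Postn, Thbs2, Tgfbi, Lox, Loxl1, Loxl2, Fbln5, Mfap5, Lama2 and Nid1.

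No member passed the test. With limma and Benjamini-Hochberg adjustment over 45037 probe sets, 0 of 39 members and 0% of all probe sets were called, and the adjusted p was 1 for each member. At an unadjusted p under 0.05, limma counted 4 of 39 members (Loxl1, Nid1, Mfap5 and Postn) and 406 of 45037 probe sets. Lower or higher below therefore describes these 4 arrays.

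**Figure D1:**
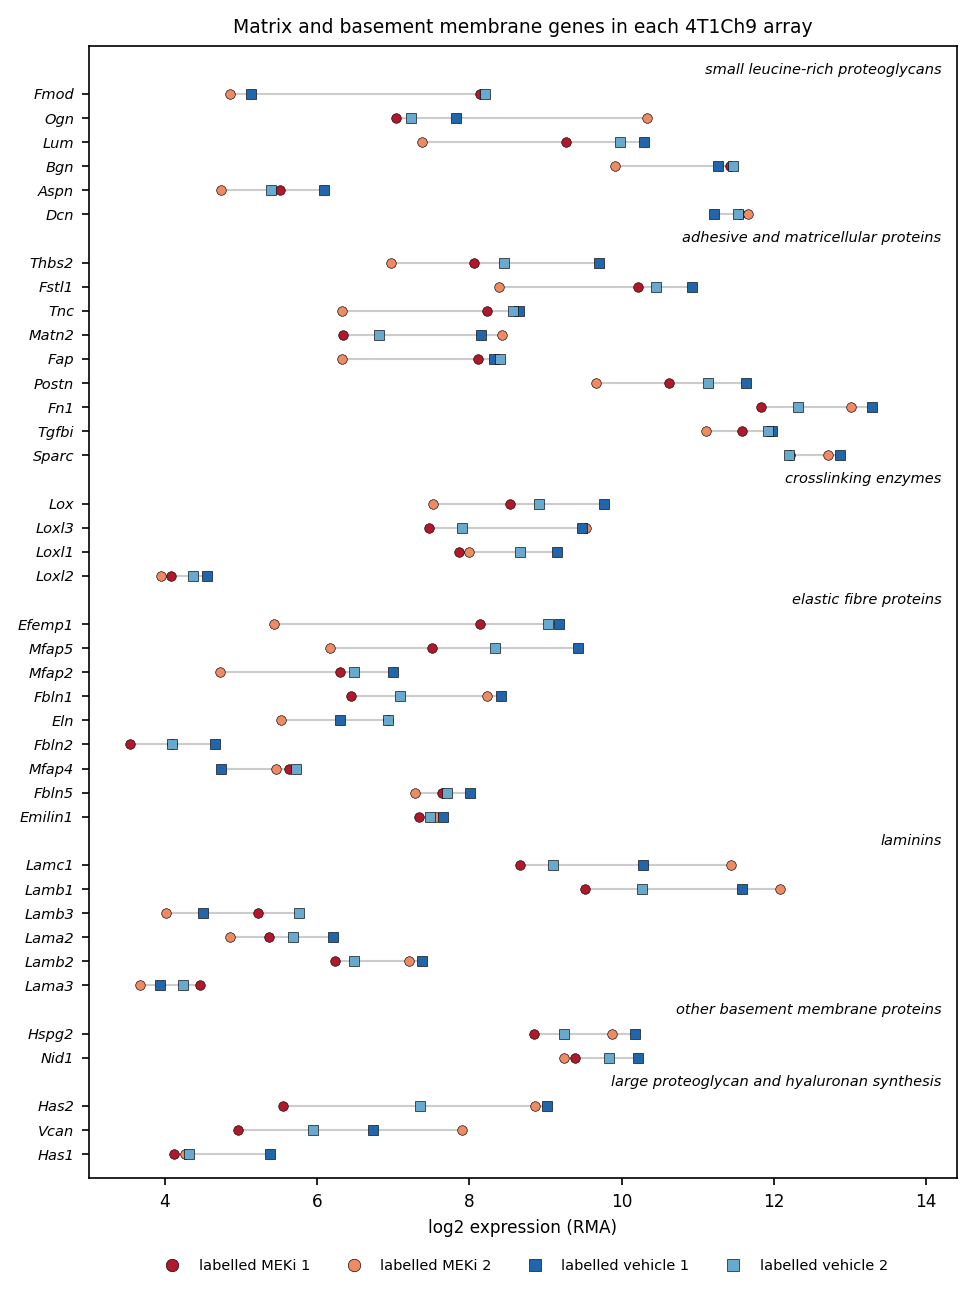
Log2 expression (RMA) of the 39 measured members in each of the 4 arrays, grouped by role. Circles stand for MEKi and squares for vehicle by label, and the line joins the lowest and the highest array of a gene. The array labelled vehicle 1 was highest for 25 members and MEKi 2 was lowest for 21.

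The promoters of 4 members are shown because these genes stand for the different patterns described below: Efemp1 and Thbs2 were lower in both MEKi arrays, Lamb1 was highest in MEKi 2 and vehicle 1, and Ogn stood out in MEKi 2 alone. Each is the RefSeq window of GRCm38.p6 from 250 bases before to 50 after the gene's start, read 5′ to 3′ on the gene's strand, with capitals for matches on either strand to the TATA box TATAAA or the GC box GGGCGG, and for overlapping matches their union. Efemp1 lies at chr11:28852955-28853254 on the + strand with 1 GGGCGG match, and Thbs2 at chr17:14694213-14694512 on the - strand with 1 TATAAA match. Lamb1 lies at chr12:31265043-31265342 on the + strand with 2 GGGCGG matches. Ogn lies at chr13:49607765-49608064 on the + strand with 2 TATAAA matches that overlap on opposite strands. Matches were counted anywhere in the window, whatever their distance from the gene's start.
Efemp1: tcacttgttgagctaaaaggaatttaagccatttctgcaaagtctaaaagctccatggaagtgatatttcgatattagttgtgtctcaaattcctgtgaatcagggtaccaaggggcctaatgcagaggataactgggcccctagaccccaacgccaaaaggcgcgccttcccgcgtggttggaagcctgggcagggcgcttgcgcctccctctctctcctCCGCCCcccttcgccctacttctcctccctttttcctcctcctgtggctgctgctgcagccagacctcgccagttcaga
Thbs2: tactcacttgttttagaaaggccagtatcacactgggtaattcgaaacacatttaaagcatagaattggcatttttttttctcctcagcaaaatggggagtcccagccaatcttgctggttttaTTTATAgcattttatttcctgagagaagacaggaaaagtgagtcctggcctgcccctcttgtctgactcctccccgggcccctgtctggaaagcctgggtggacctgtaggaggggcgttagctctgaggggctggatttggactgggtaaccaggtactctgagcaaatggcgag
Lamb1: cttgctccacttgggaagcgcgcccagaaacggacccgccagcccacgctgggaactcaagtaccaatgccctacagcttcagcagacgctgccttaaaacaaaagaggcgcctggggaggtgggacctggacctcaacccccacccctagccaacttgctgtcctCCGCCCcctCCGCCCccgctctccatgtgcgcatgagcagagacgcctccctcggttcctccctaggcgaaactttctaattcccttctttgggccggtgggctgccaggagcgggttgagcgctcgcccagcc
Ogn: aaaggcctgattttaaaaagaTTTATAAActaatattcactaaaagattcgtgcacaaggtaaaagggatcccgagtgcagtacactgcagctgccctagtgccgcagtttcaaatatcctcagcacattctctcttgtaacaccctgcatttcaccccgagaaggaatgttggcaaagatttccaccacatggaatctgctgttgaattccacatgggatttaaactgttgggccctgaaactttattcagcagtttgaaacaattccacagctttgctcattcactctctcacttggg

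RefSeq windows were matched for 24 of the measured members, 30 windows in all. The AP-1 motif TGAGTCA, which is bound by Fos and Jun proteins, was in 0 of 30 windows and in 5.20% of the 32851 promoter windows of all genes. TATAAA was in 6 of 30 (20% against 13.6% of all windows) and GGGCGG in 15 of 30 (50% against 35.7%). Of the 15 windows of members with both MEKi arrays below, 4 held TATAAA and 9 held GGGCGG, and of the 15 windows of members that overlapped, 2 and 6 did. A match is a run of letters and does not show that a factor binds there.

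Small leucine-rich proteoglycans coat collagen fibrils and set their spacing. Of 6 members, 4 had a log2 fold change below 0, and the median was -0.39. Lum, lumican, read 9.26 and 7.38 in the MEKi arrays and 10.29 and 9.98 in the vehicle arrays, with a log2 fold change of -1.81 ± 0.72 (SE, 2 arrays a label). Both MEKi arrays were lower, by at least 0.71, while they differed from each other by 1.89, and the log2 fold change was -2.75 without MEKi 1 and -0.87 without MEKi 2. Dcn, decorin, which binds collagen and TGF-beta, read 11.55 and 11.66 in MEKi and 11.21 and 11.53 in vehicle. It was the only member with both MEKi arrays above, by 0.03, at a log2 fold change of 0.24 ± 0.20, which was 0.08 without vehicle 1 and 0.40 without vehicle 2.

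Fmod, fibromodulin, and Ogn, osteoglycin, varied most among these proteoglycans, and not by label. Fmod read 8.14 and 4.86 in the MEKi arrays and 5.13 and 8.20 in the vehicle arrays. MEKi 1 and vehicle 2 were thus about 3 log2 units above the other two, and the log2 fold change of -0.17 ± 1.65 turned sign without MEKi 2 (1.47) or vehicle 2 (1.36) and was -1.81 without MEKi 1 and -1.71 without vehicle 1. Ogn read 7.04 and 10.33 in MEKi against 7.82 and 7.23 in vehicle, so that the log2 fold change of 1.16 ± 1.24 rested on MEKi 2 and was -0.49 without it and 2.81 without MEKi 1. Bgn, biglycan, read 11.42 and 9.91 in MEKi and 11.26 and 11.47 in vehicle, where MEKi 2 alone was low. Aspn, asporin, ranged over 1.35 with overlapping labels.

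Adhesive and matricellular proteins bind cells and growth factors to the matrix. All 9 measured of 10 listed had a log2 fold change below 0, with a median of -1.14, and 6 had both MEKi arrays below both vehicle arrays. Thbs2, thrombospondin 2, an inhibitor of angiogenesis, read 8.06 and 6.96 in the MEKi arrays and 9.71 and 8.45 in the vehicle arrays (log2 fold change -1.57 ± 0.63). Its arrays did not overlap by label, and the gap between labels was 0.39, but the log2 fold change was -1.02 without MEKi 2 and -0.94 without vehicle 1. Postn, periostin, which fibroblasts secrete into remodelling matrix, read 10.62 and 9.66 in MEKi and 11.64 and 11.13 in vehicle, at -1.24 ± 0.43. The gap between labels was 0.50, and the arrays of 1 label differed by 0.97 in MEKi and 0.51 in vehicle. Without MEKi 2 the log2 fold change of Postn was -0.76.

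In 3 further genes of this role MEKi 2 was the low array and MEKi 1 lay close to vehicle. Fstl1, a secreted follistatin-like glycoprotein of mesenchymal cells, read 10.21 and 8.38 in the MEKi arrays and 10.93 and 10.46 in the vehicle arrays. Tnc, tenascin C, an adhesion-modulating protein of wounds and tumors, read 8.23 and 6.33 against 8.65 and 8.57. Fap, a surface protease of activated fibroblasts, read 8.12 and 6.32 against 8.33 and 8.40. In each, MEKi 2 was at least 1.79 below MEKi 1, while MEKi 1 was at most 0.35 below the lower vehicle array. The log2 fold changes were -1.39 ± 0.71 for Fstl1, -1.33 ± 0.71 for Tnc and -1.14 ± 0.68 for Fap. Without MEKi 2 they were -0.48, -0.38 and -0.25, and without MEKi 1 they were -2.31, -2.28 and -2.04, so that their size rested on MEKi 2. The mean of both Tnc probe sets gave -0.70, since the dimmer probe set differed by -0.07.

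Tgfbi, a TGF-beta induced adhesion protein, had a narrow range and still no overlap, with 11.58 and 11.10 in MEKi and 11.97 and 11.92 in vehicle (-0.61 ± 0.24, and -0.37 without MEKi 2). The other 3 genes overlapped. Fn1, fibronectin, which links integrins to collagen, read 11.83 and 13.02 in MEKi and 13.29 and 12.32 in vehicle, and Sparc, a collagen-binding glycoprotein, read 12.21 and 12.71 against 12.86 and 12.20. Matn2, matrilin 2, read 6.34 and 8.43 against 8.15 and 6.82. In all 3 the 2 highest arrays were MEKi 2 and vehicle 1, and MEKi 1 and vehicle 2 were low.

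The crosslinking enzymes are the lysyl oxidases, copper enzymes that join collagen and elastin chains. All 4 had a log2 fold change below 0, with a median of -0.72. Loxl1, which acts on elastin, read 7.86 and 7.99 in the MEKi arrays and 9.16 and 8.67 in the vehicle arrays. Its arrays were close within a label, by 0.13 in MEKi and 0.49 in vehicle, and 0.67 apart between labels. The log2 fold change of -0.98 ± 0.24 had the lowest unadjusted p of the members in limma, 0.0179, with an adjusted p of 1.

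Lox, the main lysyl oxidase of fibroblasts, read 8.54 and 7.52 in MEKi and 9.77 and 8.91 in vehicle (-1.32 ± 0.51, and -0.81 without MEKi 2), with no overlap. Loxl2 was below the median level of the arrays, at 4.07 and 3.95 against 4.55 and 4.38, and its difference lies near the floor of the arrays. Loxl3 did not follow the label, with 7.47 and 9.53 in MEKi and 9.48 and 7.90 in vehicle. Its MEKi 2 and vehicle 1 arrays were 1.58 or more above the other two.

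Elastic fibres have a core of elastin around which microfibrils are laid, with fibulins at the interface. Of 9 measured members of 11 listed, 8 had a log2 fold change below 0, the median was -0.41, and 4 had both MEKi arrays below both vehicle arrays. Efemp1, fibulin 3, whose promoter is printed above, had the widest range of the 39 members. It read 8.14 and 5.43 in the MEKi arrays and 9.18 and 9.04 in the vehicle arrays, a log2 fold change of -2.32 ± 1.00. Vehicle arrays differed by 0.14, MEKi arrays by 2.71, and the gap between labels was 0.90. Without MEKi 2 the log2 fold change was -0.97, and without MEKi 1 it was -3.68.

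Mfap5 and Mfap2 encode microfibril-associated glycoproteins. Mfap5 read 7.51 and 6.17 in MEKi and 9.43 and 8.33 in vehicle, a log2 fold change of -2.04 ± 0.65 with a gap of 0.83 between labels. Mfap2 read 6.30 and 4.73 against 7.00 and 6.48, at -1.23 ± 0.63, which was -0.44 without MEKi 2 and -2.01 without MEKi 1. In both genes the order of the arrays was vehicle 1, vehicle 2, MEKi 1 and MEKi 2, from high to low.

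The remaining elastic fibre genes ranged less or overlapped. Emilin1, an elastin microfibril interface protein, had the narrowest range of the members, 0.31, with 7.34 and 7.57 in MEKi and 7.65 and 7.49 in vehicle. Fbln5, fibulin 5, needed for elastic fibre assembly, read 7.64 and 7.29 against 8.00 and 7.71, with a gap of 0.07 between labels. Eln, elastin, read 6.93 and 5.53 against 6.30 and 6.93, and only MEKi 2 stood low. Fbln1, fibulin 1, read 6.45 and 8.23 against 8.42 and 7.09, the pattern of Loxl3 and Fn1. Fbln2, which was below the median level of the arrays, and Mfap4 ranged over 1.12 and 0.99 with overlapping labels.

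**Figure D2:**
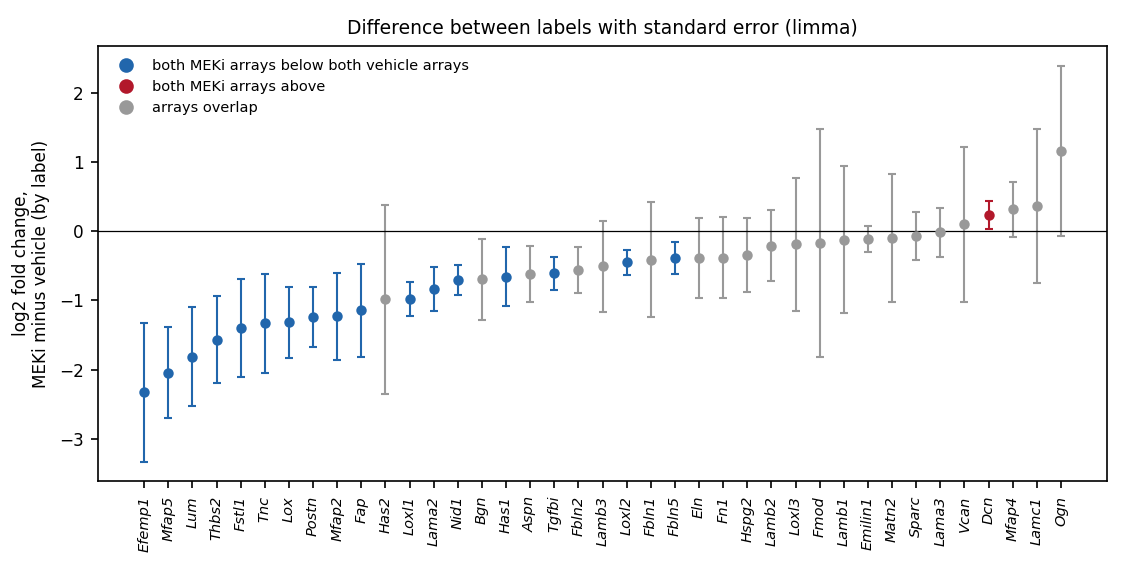
Log2 fold change between labels (MEKi minus vehicle) of each of the 39 members, with bars of 1 standard error from limma. Blue points are the 17 members with both MEKi arrays below both vehicle arrays, the red point is Dcn, and grey points are the 21 that overlap. Efemp1 is lowest at -2.32 (-0.97 without MEKi 2) and Ogn highest at 1.16 (-0.49 without MEKi 2).

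Laminins are heterotrimers of an alpha, a beta and a gamma chain, and the genes of the chains did not vary together. Of 6 measured of 8 listed, 5 had a log2 fold change below 0, with a median of -0.16. Lamb1 and Lamc1, the beta and gamma chains of the most widespread laminins, shared their pattern. Lamb1 read 9.52 and 12.08 in the MEKi arrays and 11.59 and 10.26 in the vehicle arrays, and Lamc1 read 8.67 and 11.44 against 10.28 and 9.10. In both, MEKi 2 was highest and MEKi 1 lowest, with both vehicle arrays between them. The gap within MEKi was 2.56 for Lamb1 and 2.77 for Lamc1, while the log2 fold changes were -0.12 ± 1.07 and 0.36 ± 1.11. Without MEKi 1 that of Lamb1 was 1.16, and without MEKi 2 it was -1.40. That of Lamc1 was 1.74 without MEKi 1 and -1.02 without MEKi 2.

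Lama2, the alpha chain of the laminins around muscle and fat cells, was the only laminin gene with both MEKi arrays below, at 5.36 and 4.86 against 6.21 and 5.68 (-0.84 ± 0.31). Lamb3, a chain of the laminin beneath epithelia, read 5.22 and 4.02 against 4.50 and 5.76, and so was highest in MEKi 1 and vehicle 2, as Fmod was. Lama3, the alpha chain of that laminin, ranged over 0.79. Lamb2 ranged over 1.15. Lama3 and Lamb3 were below the median level of the arrays.

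Of the other basement membrane proteins, Nid1, nidogen 1, which bridges laminin and collagen IV, read 9.39 and 9.25 in the MEKi arrays and 10.21 and 9.83 in the vehicle arrays. The arrays of a label lay within 0.38 of each other, and those of different labels were at least 0.44 apart, with a log2 fold change of -0.70 ± 0.22. Hspg2, perlecan, a heparan sulfate proteoglycan, overlapped, with 8.85 and 9.88 in MEKi and 10.17 and 9.24 in vehicle. In the brighter of its probe sets Nid1 was thus separate by label. The arrays of Lamb1 and Lamc1, chains of its laminin partners, differed most between MEKi 1 and MEKi 2. The dimmer Nid1 probe set overlapped, with 5.41 and 6.30 in MEKi and 6.79 and 6.11 in vehicle, at a log2 fold change of -0.59.

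Versican and hyaluronan form the loose, swollen matrix of growing tissue. Has2, the main hyaluronan synthase of mesenchymal cells, read 5.55 and 8.85 in the MEKi arrays and 9.02 and 7.35 in the vehicle arrays. MEKi 1 was the lowest array, and the log2 fold change of -0.98 ± 1.36 became 0.67 without it, -2.64 without MEKi 2, -0.15 without vehicle 1 and -1.82 without vehicle 2. Vcan, versican, read 4.96 and 7.90 in MEKi and 6.73 and 5.94 in vehicle, highest in MEKi 2 and lowest in MEKi 1. Has1, below the median level of the arrays, read 4.12 and 4.27 against 5.38 and 4.32, where vehicle 1 alone was high.

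Members varied more over the 4 arrays than most genes did. The range from the lowest to the highest array had a median of 1.74 over the members and 0.55 over all genes, and was above 2 for 17 of 39 members (43.6%) against 8.43% of all genes. All genes were not matched to the members for level. The members' medians in the arrays lay from 7.52 to 8.65, and those of all probe sets from 4.98 to 5.14. Differences are compressed near the floor, and how much of the wider range goes with level was not tested. The array labelled vehicle 1 was highest for 25 members, and it was highest for 20.1% of all genes. MEKi 2 was lowest for 21 members (27.2% of all genes) and MEKi 1 for 15 (30.0% of all genes).

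The 6 pairs of arrays show how much of this lay within a label. In each pair a member was counted where it differed by over 1 log2 unit either way. Within a label this held for 23 members (59.0%) between MEKi 1 and MEKi 2, against 19.9% of all genes, and for 11 members (28.2%) between vehicle 1 and vehicle 2, against 11.7%. Between labels it held for 20 members (51.3%) between MEKi 1 and vehicle 1, against 15.4%, and for 1 member (2.56%), Has2, between MEKi 1 and vehicle 2, against 1.12%. For MEKi 2 it held for 18 members (46.2%) against vehicle 1, beside 6.6% of all genes, and for 22 members (56.4%) against vehicle 2, beside 17.4%. Between MEKi 1 and vehicle 2 the share rests on that 1 member. In the other pairs, those within a label included, the share of members was above that of all genes. All genes were again not matched for level.

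By sign, members read lower in the MEKi array of the pair for 32 of 39 in MEKi 1 minus vehicle 1 (median -0.85), 34 in MEKi 1 minus vehicle 2 (-0.34), 31 in MEKi 2 minus vehicle 1 (-0.60) and 24 in MEKi 2 minus vehicle 2 (-0.56). These pairs share arrays and are not independent. Within a label, MEKi 1 was lower than MEKi 2 for 17 members (median 0.18), and vehicle 1 was lower than vehicle 2 for 8 (median 0.52).

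**Figure D3:**
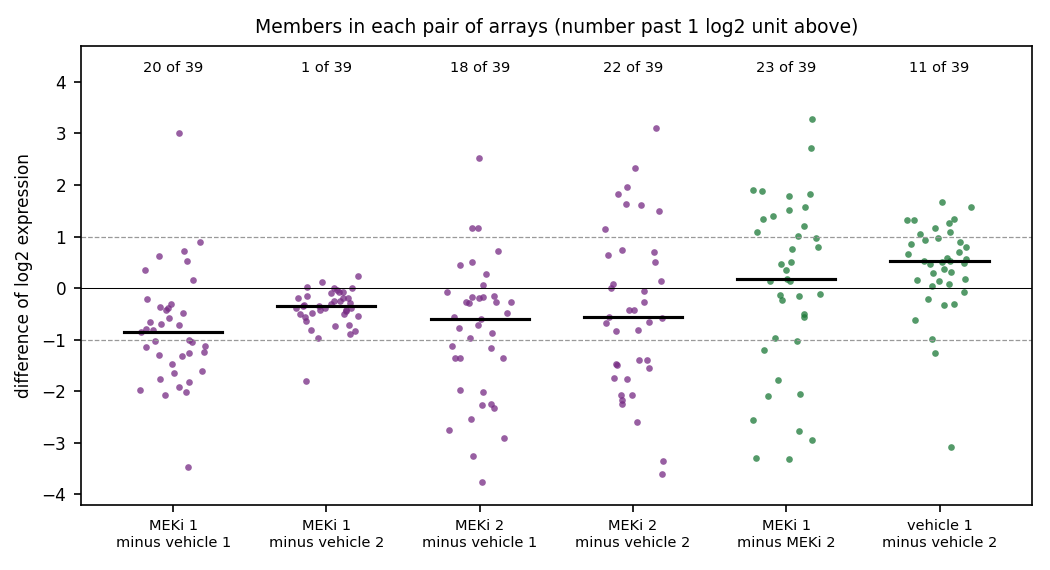
Differences of log2 expression of the 39 members in each of the 6 pairs of arrays. Each point is a member, the thick line is the median, the dashed lines mark 1 log2 unit either way, and the number of members past it is printed above. Purple pairs are between labels and green pairs within a label, and 23 members differed by over 1 log2 unit between MEKi 1 and MEKi 2.

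Leaving out 1 array changed how many members had no overlap by label. With MEKi below, both remaining groups were separate for 23 members without MEKi 1 (59.0%, against 31.3% of all genes) and 30 without MEKi 2 (76.9%, against 36.1% of all genes). The groups were separate in that direction for 21 without vehicle 1 (53.8%, against 26.5% of all genes) and 26 without vehicle 2 (66.7%, against 24.01% of all genes). With MEKi above, they were separate for 7 members without MEKi 1 (17.9%, against 38.9% of all genes), 3 without MEKi 2 (7.69%, against 31.7%), 2 without vehicle 1 (5.13%, against 23.2%) and 2 without vehicle 2 (5.13%, against 30.5%). The median log2 fold change lay between -0.84 and -0.27, and was nearest to 0 without vehicle 1, when 27 of 39 members were below 0.

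Markers of other cell types moved with the arrays and were set beside the members. In bulk tumors, fewer cells of a type and less RNA per cell cannot be told apart. Adipocyte markers, 4 measured of 5, were all lower in both MEKi arrays and had medians of 9.99 and 6.72 in the MEKi arrays and 11.06 and 10.71 in the vehicle arrays. Fabp4, the fatty acid binding protein of adipocytes, read 11.99 and 10.96 against 12.68 and 12.62. This is the order of the arrays seen for Efemp1, Mfap5 and Tnc, and for other members such as Lum, Postn and Thbs2. It is not particular to adipocyte markers. The fibroblast markers Acta2 and Gsn, the collagen Col3a1 and the epithelial Krt7 had it too, though not every gene of those lists did. The part of fat cells in the members' values was not tested. Tumor epithelial markers, 9 genes, had medians of 8.19 and 6.54 in MEKi and 8.79 and 8.50 in vehicle. All 9 had a log2 fold change below 0, with a median of -1.10, and 5 had both MEKi arrays below. They did not vary together across the arrays. Krt8 read 10.54 and 12.11 in MEKi and 12.92 and 11.75 in vehicle, while Epcam read 9.06 and 6.54 against 8.79 and 9.23.

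Lymphoid markers split the arrays in another way. B cell markers, 5 measured of 6, had medians of 9.70 and 4.17 in the MEKi arrays and 4.15 and 9.10 in the vehicle arrays. T cell markers, 6 genes, had 10.54 and 5.98 against 6.83 and 10.35, and lymph node stroma markers, 5 genes, had 11.53 and 4.18 against 4.05 and 11.28. MEKi 1 and vehicle 2 were thus high in all 3 lists, and MEKi 2 and vehicle 1 were low. Among the members, Fmod, Bgn, Eln, Mfap4, Lama3 and Lamb3 were highest in the same arrays, and Lamb1, Lamb2, Lamc1, Hspg2, Fn1, Sparc, Matn2, Loxl3, Fbln1, Fbln2, Emilin1, Has2, Vcan and Ogn were highest in the other two. Whether lymphoid tissue in the samples plays a part in this was not tested.

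Fibroblast markers, 7 genes, had medians of 10.00 and 8.49 in the MEKi arrays and 9.89 and 10.44 in the vehicle arrays. Of these, 5 had a log2 fold change below 0, with a median of -0.64, and 4 had both MEKi arrays below. Collagens, 9 genes, had 9.98 and 11.36 against 11.33 and 10.31. Of the 9 collagens, 7 had a log2 fold change below 0, with a median of -0.26, and 3 had both MEKi arrays below. Of all genes, 10.2% had both MEKi arrays below. Col3a1, a fibrillar collagen of stroma, read 13.03 and 11.42 against 13.50 and 13.20, and was among the 3 collagens with both MEKi arrays below. Col4a1, a collagen of basement membranes, read 10.70 and 12.23 against 11.94 and 11.04, and the fibrillar Col5a1 read 9.82 and 11.36 against 11.35 and 10.04, both highest in MEKi 2 and lowest in MEKi 1. Endothelial markers, 5 genes, had medians of 7.98 and 8.99 against 9.10 and 8.33. Pericyte and smooth muscle markers, 4 measured of 5, had 7.41 and 4.75 against 6.25 and 7.51. Skeletal muscle markers were near the floor of the arrays, with medians from 3.89 to 4.19. None of these lists had a call in limma.

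The median of the other matrix genes was near 0. Of 31 measured of 34 other matrix genes, 15 had a log2 fold change below 0 with a median of 0.04, 5 had both MEKi arrays below and 2 above. Their medians were 5.89 and 4.71 in the MEKi arrays and 5.13 and 5.82 in the vehicle arrays, below those of the members. Many of them thus lie near the floor, where differences are compressed, and how far level bears on this comparison was not tested. Brighter genes of this list read both ways, such as Prelp (log2 fold change 1.01) and Ltbp1 (-0.77). Receptors for the matrix, mainly integrins, 17 measured of 19, had medians of 8.34 and 9.97 in the MEKi arrays and 10.27 and 8.71 in the vehicle arrays, and the median log2 fold change was -0.10. Genes of TGF-beta signaling, the pathway that drives matrix synthesis in fibroblasts, had medians of 8.15 and 10.56 against 9.64 and 8.36 over 10 measured genes of 11, with a median log2 fold change of 0.07. In each of these lists 0 genes were called. Reference genes, 12 measured of 15, had medians between 12.85 and 12.95 in the 4 arrays.

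**Figure D4:**
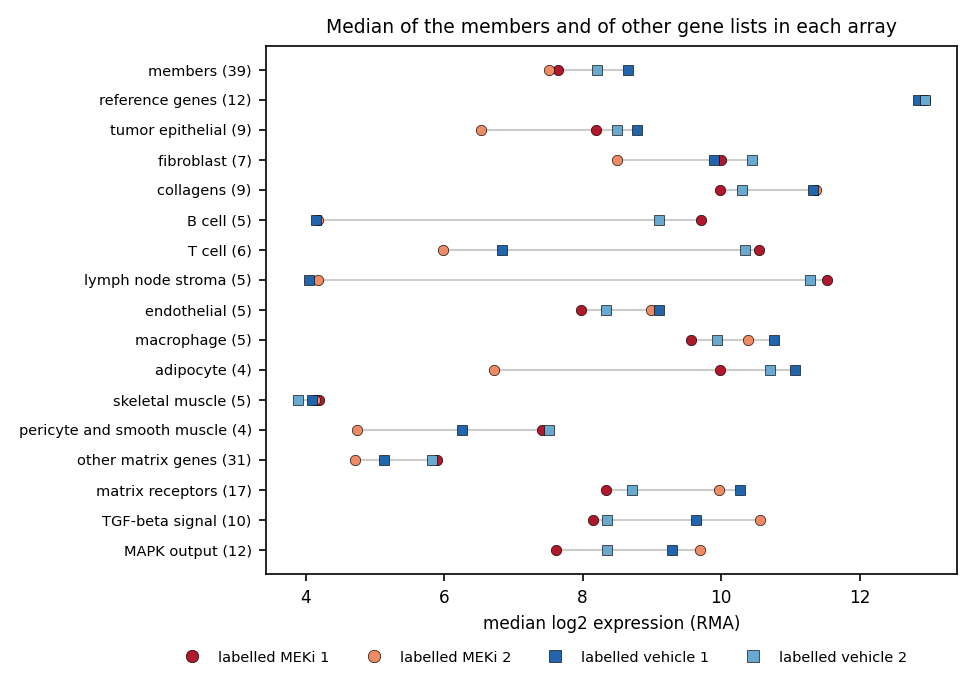
Median log2 expression (RMA) of the 39 members and of 16 other gene lists in each of the 4 arrays, with the number of measured genes in brackets. Circles stand for MEKi and squares for vehicle by label. Adipocyte markers are lowest in MEKi 2 at 6.72, and B cell and lymph node stroma markers are high in MEKi 1 and vehicle 2.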

How the data were processed

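Total RNA of 4T1Ch9 tumors was measured on 4 Affymetrix MG-430PM arrays. The values the authors deposited are log2 expression per probe set, made with RMA in R with background correction and quantile normalization. No filter or pooling is stated in the sources used here.

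The table has 45141 probe sets, of which 104 are controls and 45037 were tested. The platform annotation pairs 28898 of these with a single gene symbol, 551 with several and 15588 with none, and genes were named from the first kind. Entrez identifiers matched 28689 of them to the RefSeq gene table, and 0 symbols changed. Of the members, 21 have several probe sets, and another probe set of Fbln1, Fbln5, Hspg2, Lama3 and Vcan differed in sign.

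Probe sets were fitted with limma 3.58.1 (lmFit, eBayes) in R 4.3.3, two-sided, MEKi against vehicle. Calls were made at an adjusted p (Benjamini-Hochberg) under 0.1 together with an unadjusted p under 0.05 and a change of more than 1.5-fold. The fits were tested on simulated data. Tables and figures were made with Python 3.11.15, numpy 2.4.6, pandas 2.3.3 and matplotlib 3.10.9.

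The members, gene lists and tests were chosen with earlier results of these data known. Every member is named. Array values were given for the 24 members of widest range, the 6 without overlap and with the largest gaps, and the 6 of narrowest range above the array median. Array values of other members, and the examples from the gene lists, were chosen after values were seen. The same replicate number was checked as a pairing: the deviations of MEKi 1 and vehicle 1 from their label means correlated at -0.76 over the tested probe sets, and the sources used here do not link the numbers. Alternatives were another adjusted p threshold, an intensity trend, no moderation, the dimmest 0.25 of probe sets left out, centring on reference or tumor epithelial genes, a replicate block, each array left out, and other choices of probe set. Columns of other series numbered 0.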

Additional observations from a re-analysis of the deposited data

How the results depend on the processing

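Over the 31 values set against alternatives, 253 recomputed values were classed as the same, 18 as reversed, 4 as moved, 8 as stronger and 1 as weaker. For a count, the same means within 1.5 times of the main value, and for the log2 fold change of a gene it means the same sign. Medians classed as the same could still shift. That of MEKi 1 minus vehicle 1 went from -0.85 to -0.25 when centred on tumor epithelial genes. The members' median log2 fold change went from -0.51 to -0.27 without vehicle 1. Centring each array on tumor epithelial genes, which adds 1.28 to every log2 fold change, moved the most: the members' median became 0.78 (1.29 for all genes), and 9 members had MEKi above (23.1%, against 75.0% of all genes) and 3 below (7.69%, against 0.287%). With it 2 probe sets were called, S100a8 and S100a9 (limma, adjusted p = 0.0399), which are not members. The median differences between arrays became 1.65 (MEKi 2 minus vehicle 1), 1.40 (MEKi 2 minus vehicle 2) and -1.48 (MEKi 1 minus MEKi 2). The log2 fold change changed sign for 27 of 39 members, 7 remaining below 0 (1.04% of all genes). Those with values given above include Postn (0.042), Loxl1 (0.30), Nid1 (0.58), Fap (0.14), Mfap2 (0.055), Lama2 (0.45), Tgfbi (0.68), Fmod (1.11), Lamb1 (1.16) and Has2 (0.30). The lower level of the members by label thus holds relative to all genes and to reference genes (a shift of -0.05), not relative to tumor epithelial genes. The tumor epithelial genes were themselves lower by label, at a median of -1.10, and did not vary together across the arrays. With each array left out, log2 fold changes ran from -1.81 to 1.47 for Fmod, -0.49 to 2.81 for Ogn, -1.40 to 1.16 for Lamb1, -1.02 to 1.74 for Lamc1 and -2.64 to 0.67 for Has2, and members without overlap numbered 2 to 7 with MEKi above (23.2% to 38.9% of all genes) and 21 to 30 below (24.01% to 36.1%). For members lower by label, such as Efemp1, Lum, Fap, Tnc, Fstl1 and Mfap2, sizes moved by over 1.5 times without an array and kept their sign, as given beside them. These counts were added after seeing the data. A replicate block gave 0 calls, 267 probe sets at an unadjusted p under 0.05, and a median of -0.51, and it changed no call. A crossed block (MEKi 1 with vehicle 2), added after seeing the data, also gave 0 calls in limma. At an unadjusted p under 0.05 in limma it counted 1447 of 45037 probe sets and 13 of 39 members. In every fit with 2 arrays a label, 0 members were called by limma. At an unadjusted p under 0.05, these fits counted from 0 members (no moderation, with 1189 probe sets) to the 13 of the crossed block. Members below the array median (5 of 39) are near the floor, where differences are compressed.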
